A study of Homo sapiens with 20 samples.

Results

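Immediate early genes are genes whose transcription starts within minutes of a growth factor, depolarisation or stress signal, without new protein synthesis. The 10 members described here were FOS, FOSB, FOSL1, JUN, JUNB, EGR1, EGR2, EGR3, IER2 and NR4A1. Each was found by its symbol among the 20237 coding records of the 38369 gene records in the data, where a record is a locus to which the authors assigned one expression value. All 10 had 1 record each, and 0 of those records were merged with another gene.

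Polyadenylated RNA was sequenced while neural progenitors made from the human embryonic stem cell line H1, an established line, differentiated into neurons. The 20 samples covered 7 days, with 3 cultures each on 6 of them and 2 on day 5, where the submitters had taken out a culture as an outlier. Day 0 cells stood in neural proliferation medium, which holds DMEM/F12, Neurobasal, N2, B27 without vitamin A and FGF at 20 ng/ml. Cells of every later day had been moved to neural differentiation medium, which is Neurobasal with B27 without vitamin A and BDNF at 10 ng/ml, so day 1 differs from day 0 in FGF, BDNF and basal medium together. Cultures of days 5, 11 and 18 had also been replated on day 4, from Matrigel onto poly-D-lysine and laminin. The differentiation medium was renewed every other day, and the time between the last renewal and harvest is not given in the sources used here. All cells came from 1 embryonic stem cell line and were detached with Accutase before lysis.

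Expression is given as FPKM, sequenced fragments corrected for transcript length and for the size of the library. The deposited matrix holds 1 FPKM value per record and day, an estimate over the cultures of that day. The values of single cultures were not used here, so no spread between cultures is given for any value, no test was run, and the depth behind each value is unknown. Changes between days are differences in log2(FPKM + 0.1), a scale that understates the change of genes with low values. The median change over the 11793 coding records whose FPKM averaged 1 or more over the days, called expressed below, was -0.11 for day 1 against day 0, 0.04 for day 2 against day 1, -0.00 for day 4 against day 2, -0.07 for day 5 against day 4, -0.16 for day 11 against day 5, -0.28 for day 18 against day 11 and -0.60 for day 18 against day 0. Changes below are relative to that median unless called deposited, and a gene is counted as higher or lower when it lay at least 2-fold away from it. A total of 7 members were expressed by this definition, and FOSB, EGR2 and EGR3 were not.

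Marker genes were read as a check of the labels. MAP2, a dendritic microtubule protein, went from 93.5 FPKM on day 0 to 205 on day 18, and DCX, which binds microtubules in migrating neurons, from 5.46 to 88.0. Of 11 neuron markers, 7 were higher on day 18 than on day 0 and 0 lower. Among all expressed coding records, 14.7% were higher and 12.1% lower. In deposited FPKM, NEFL (153 to 68.1), NEFM (179 to 108) and GAP43 (193 to 173) went down. The progenitor intermediate filament gene NES went from 514 to 180, and the proliferation marker MKI67 from 74.2 to 14.2. The progenitor markers PAX6 (4.31 to 10.4) and HES5 (1.95 to 20.0) went up, and the rest of that list went down in FPKM. GFAP of astrocytes stayed at or below 0.186 FPKM and PTPRC of leukocytes at or below 0.0125. In such mixed cultures, fewer cells of a type and less RNA per cell cannot be told apart.

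The members encode transcription factors of a few families. FOS, FOSB and FOSL1 proteins pair with JUN or JUNB through leucine zippers to form AP-1, EGR1, EGR2 and EGR3 carry zinc fingers that bind GC-rich sites, and NR4A1 is an orphan nuclear receptor. IER2 encodes a nuclear protein of less well known function. Growth factors reach these genes mainly through ERK, a kinase that activates ETS factors (the ternary complex factors) bound beside serum response factor at CArG boxes, while calcium and cyclic AMP reach them through CREB at cyclic AMP response elements. In neurons, FOS, EGR1 and NR4A1 are widely used as marks of recent activity.

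Promoters were read for the members and searched for CArG boxes, cyclic AMP response elements and other motifs. RefSeq promoters of build GRCh38.p14, each with 250 bases before and 50 after a transcription start, were read for 8 members. These had 11 start sites in all. No promoter was read for FOSL1 or EGR3, and the motif matches below do not cover these members. A CArG box, on either strand, was present in EGR1 and EGR2 and in 1.29% of all 35116 promoters of that length. The full palindrome TGACGTCA was in 0 of the 11 windows and in 1.85% of all promoters. Its shorter part TGACGT, a motif added after the sequences had been read and contained in the palindrome, was in EGR1, EGR2, FOS and FOSB, and in 7.98% of all promoters. TATAAA was in FOS, FOSB and JUNB and in 11.5% of all promoters, the EGR site GCGNGGGCG was in EGR1 and EGR2 and in 9.43%, and the AP-1 site TGANTCA was in 0 of the 11 windows and in 7.71%. The windows of JUN, IER2 and NR4A1 held none of these letters. The serum response element of FOS is known to lie further upstream than this window.

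The 150 bases before the start site are shown for the 4 members with a TGACGT match, 5′ to 3′ on the gene's strand, with CArG boxes, TGACGT or its reverse complement, and TATAAA in capitals. EGR1 lies at chr5:138465329-138465478 on the plus strand and holds 2 CArG boxes between 2 TGACGT matches. The third of 3 EGR2 starts lies at chr10:62816367-62816516 on the minus strand, and its CArG box has the same letters as the one nearer to the start in EGR1. FOS lies at chr14:75278678-75278827 and FOSB at chr19:45467846-45467995, both on the plus strand, each with a TGACGT match upstream of TATAAA.
EGR1: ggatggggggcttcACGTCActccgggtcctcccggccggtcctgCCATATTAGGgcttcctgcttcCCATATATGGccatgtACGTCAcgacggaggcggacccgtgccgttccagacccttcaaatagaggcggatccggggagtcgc
EGR2: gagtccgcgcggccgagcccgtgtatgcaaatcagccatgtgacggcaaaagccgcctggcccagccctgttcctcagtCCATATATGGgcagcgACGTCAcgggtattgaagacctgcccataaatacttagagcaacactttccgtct
FOS: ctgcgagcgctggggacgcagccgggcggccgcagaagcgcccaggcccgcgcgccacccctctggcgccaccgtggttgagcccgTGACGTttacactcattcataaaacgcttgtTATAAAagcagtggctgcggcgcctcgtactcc
FOSB: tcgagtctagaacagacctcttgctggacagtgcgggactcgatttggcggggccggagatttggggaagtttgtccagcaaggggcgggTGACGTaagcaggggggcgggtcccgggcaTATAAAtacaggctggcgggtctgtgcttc
A match in these letters is a description of the reference sequence and was not measured as a bound site. EGR1 and FOSB share TGACGT, while of these 2 only EGR1 has CArG boxes and only FOSB has TATAAA. FOSB stayed at or below 0.147 FPKM on all 7 days, and EGR1 reached 23.3. The part of these letters in the levels was not tested.

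**Figure D1:**
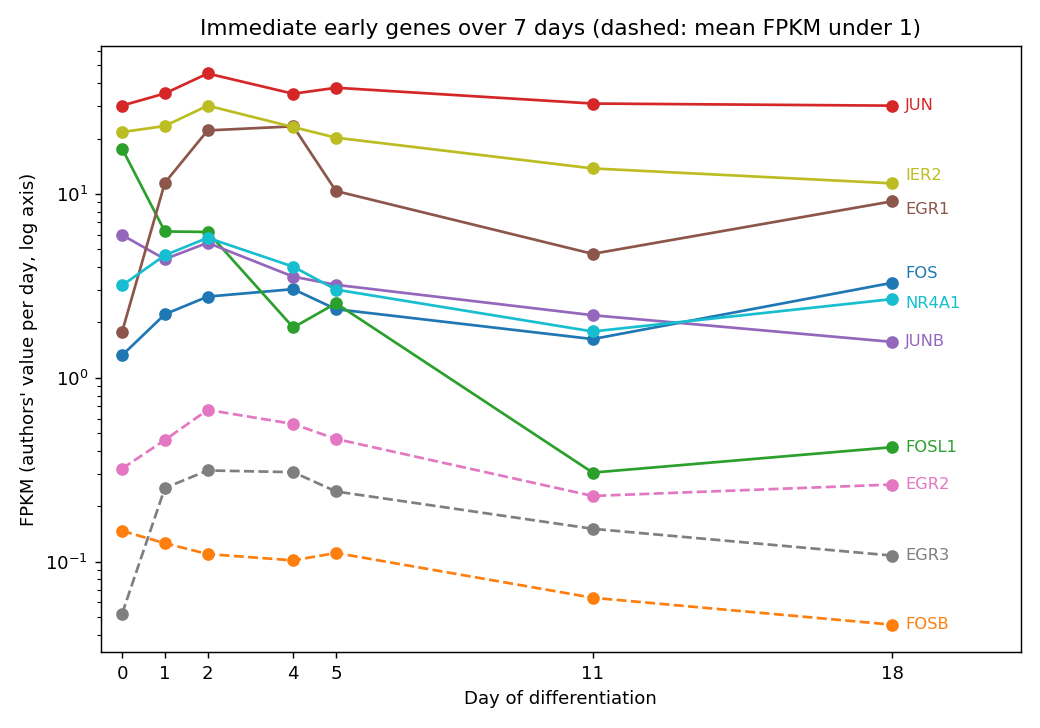
FPKM of the 10 immediate early genes (authors' value per day, log axis) against the day of differentiation, with solid lines for the 7 members whose mean FPKM was at least 1 and dashed lines for the other members. JUN lies highest on every day, FOSL1 goes from 17.6 to 0.419, and EGR1 goes from 1.78 on day 0 to 23.3 on day 4 and 9.12 on day 18.

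FOS and FOSL1, of the same branch of AP-1, had opposite changes over the course. FOS, on chr14:75745481-75748935 (hg19, plus strand), had 1.33 FPKM on day 0, 2.22 on day 1, 2.77 on day 2, 3.03 on day 4, 2.36 on day 5, 1.62 on day 11 and 3.29 on day 18. Its highest day was therefore the last and its lowest the first, with a ratio of 2.48 between them. FOSL1, which encodes the FRA-1 protein and is induced through ERK and AP-1 itself, is on chr11:65659692-65667997 (minus strand). It had 17.6 FPKM on day 0, 6.25 on day 1, 6.21 on day 2, 1.88 on day 4, 2.54 on day 5, 0.305 on day 11 and 0.419 on day 18. FOSL1 was 42.1-fold lower on day 18 than on day 0 by deposited FPKM, and it came down in 3 steps of at least 2-fold, at days 1, 4 and 11. FOSB, on chr19:45971253-45978436 (plus strand), went from 0.147 FPKM on day 0 and 0.126 on day 1 to 0.0636 on day 11 and 0.0454 on day 18, so this member was near 0 throughout.

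Because FPKM is scaled to length, levels can be set side by side within the family. FOSL1 had 13.3 times the FPKM of FOS on day 0, and FOS had 7.84 times that of FOSL1 on day 18. FOSL1 made up 64.6% of the summed FPKM of FOS, FOSB, FOSL1 and FOSL2 on day 0, 30.1% on day 2, 8.59% on day 11 and 6.44% on day 18. FOSL2, which encodes the FRA-2 protein and is no member, held 30.0% on day 0, 61.8% on day 4 and 42.4% on day 18. The share of FOS went from 4.85% on day 0 to 23.1% on day 4 and 50.5% on day 18, while the family sum went from 27.3 to 6.51 FPKM. The larger share of FOS on day 18 thus came with a higher FOS level and a much smaller total.

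Several gene lists had their highest sum on day 0, as FOSL1 did. Among them were the mesenchymal and proliferation markers, the ERK feedback and ETS genes (350 FPKM) and the heat shock genes (1250 FPKM). The 10 mesenchymal markers summed to 663 FPKM on day 0, 382 on day 1, 422 on day 2 and 259 on day 4. Their sum was then 301 on day 5, 110 on day 11 and 57.8 on day 18. COL1A1 was listed at 0 on all 7 days. COL1A2, COL3A1, POSTN and TAGLN were lower on day 18 than on day 0, and LUM and ACTA2 stayed within 2-fold. PDGFRB (2.99 to 0.834 FPKM) is given without a count. Its record, merged with CSF1R, met the expression minimum only through day 0. The 12 proliferation markers summed to 986 FPKM on day 0, 602 on day 1, 550 on day 2, 589 on day 4, 446 on day 5, 478 on day 11 and 217 on day 18, and 11 of them were lower on day 18 than on day 0. Among all expressed coding records, 12.1% were lower between the same days. The proliferation sum was lower on day 1 than on day 0, and somewhat higher on day 4 than on day 2 and on day 11 than on day 5. FOSL1 and the mesenchymal sum were lower at each of these steps. From day 11 to day 18 FOSL1 was higher (0.305 to 0.419 FPKM) and both sums were lower. The part of either group in the FOSL1 values was not tested.

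JUN was the most even member. JUN, the main DNA-binding partner of FOS proteins, is on chr1:59246464-59249785 (minus strand). It had 30.2 FPKM on day 0, 35.2 on day 1, 45.2 on day 2, 35.1 on day 4, 37.8 on day 5, 31.0 on day 11 and 30.2 on day 18. JUN had the highest FPKM of the 10 members on every day and the smallest ratio of highest to lowest day, 1.496. JUNB, which often limits the activity of JUN, is on chr19:12902286-12905242 (plus strand). It had 5.98 FPKM on day 0, 4.42 on day 1, 5.43 on day 2, 3.55 on day 4, 3.20 on day 5, 2.19 on day 11 and 1.57 on day 18. JUNB was 3.81-fold lower on day 18 than on day 0 in deposited FPKM, but no single step reached 2-fold.

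The sum of JUN, JUNB and JUND, the third family member, stayed between 73.5 and 112 FPKM. As the FOS family sum shrank, the ratio of the JUN to the FOS family went from 2.80 on day 0 to 20.9 on day 11 and 12.0 on day 18. JUND held 52.6% of the JUN family on day 0 and 59.2% on day 18, and JUNB went from 7.83% to 2.01%.

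**Figure D2:**
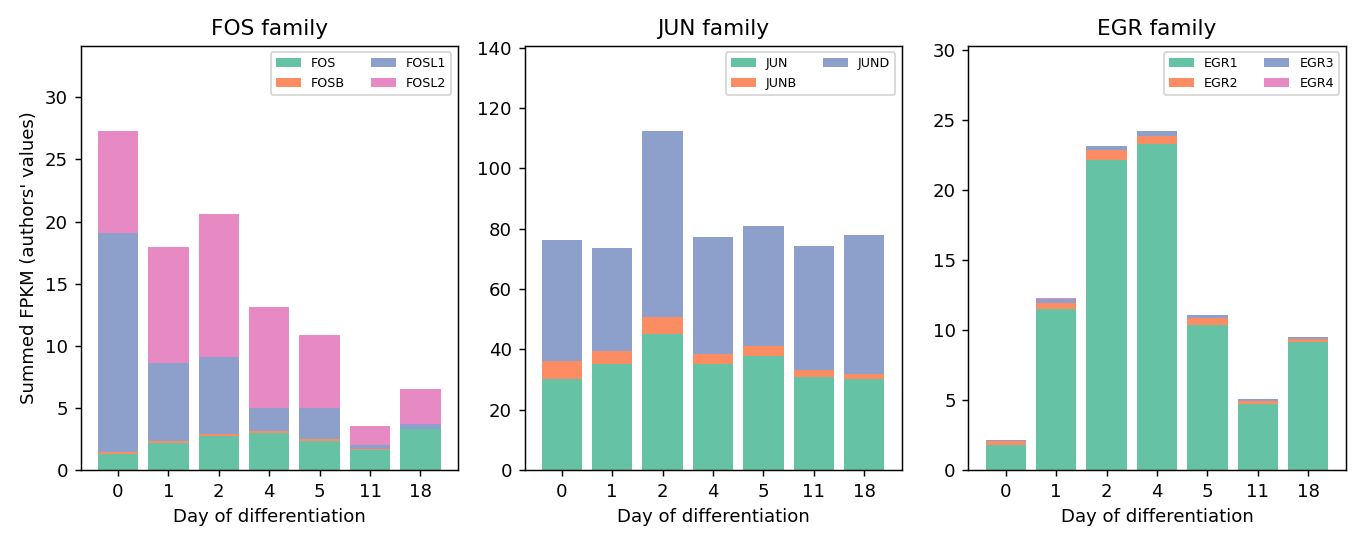
Summed FPKM (authors' values, each axis starting at 0) of the FOS, JUN and EGR families on each of the 7 days, with bars divided by gene. The FOS family goes from 27.3 to 6.51 FPKM and FOSL1 from the greater part of it to 6.44%, the JUN family stays between 73.5 and 112, and EGR1 is nearly all of the EGR family on every day.

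EGR1, whose zinc finger protein links ERK signals to target genes, varied most after FOSL1. The gene is on chr5:137801181-137805004 (plus strand). EGR1 had 1.78 FPKM on day 0, 11.5 on day 1, 22.2 on day 2, 23.3 on day 4, 10.4 on day 5, 4.72 on day 11 and 9.12 on day 18. Days 2 and 4 were close, at 12.4 and 13.1 times the day 0 value, and the day after replating stood 2.25-fold below day 4. All later days stayed above day 0, which was the lowest. Between 82.7% (day 0) and 96.3% (day 4) of the summed FPKM of EGR1 to EGR4 came from EGR1.

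EGR2 and EGR3 stayed under 1 FPKM on all 7 days. EGR2, known for its role in hindbrain and Schwann cells, is on chr10:64571760-64578927 (minus strand), and its values were 0.321 FPKM on day 0, 0.459 on day 1, 0.669 on day 2, 0.561 on day 4, 0.465 on day 5, 0.228 on day 11 and 0.263 on day 18. EGR3, a target of EGR1 in other systems, is on chr8:22545174-22550815 (minus strand), with 0.0521 FPKM on day 0, 0.251 on day 1, 0.313 on day 2, 0.307 on day 4, 0.241 on day 5, 0.151 on day 11 and 0.108 on day 18. Both were highest on day 2, EGR2 at 2.09 and EGR3 at 6.01 times its day 0 value. How precise these small values are cannot be given without counts.

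NR4A1, on chr12:52416616-52453285 (plus strand), had 3.18 FPKM on day 0, 4.64 on day 1, 5.77 on day 2, 4.02 on day 4, 3.02 on day 5, 1.79 on day 11 and 2.68 on day 18. It was thus highest on day 2, lowest on day 11 and higher again on day 18. Its relative NR4A2, a dopaminergic neuron factor, had 0.109 FPKM on day 0 and 0.540 on day 18, and NR4A3 had 0.675 and 1.07. The share of NR4A1 in the sum of the 3 NR4A genes was 80.2% on day 0, 91.2% on day 2 and 62.5% on day 18. IER2, on chr19:13261282-13265716 (plus strand), had 21.7 FPKM on day 0, 23.4 on day 1, 30.2 on day 2, 23.1 on day 4, 20.2 on day 5, 13.8 on day 11 and 11.4 on day 18. IER2 ranked second after JUN on every day but day 4, when EGR1 stood just above it at 23.3 against 23.1.

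Day 2 was the highest day for JUN, IER2 and NR4A1, and for EGR2 and EGR3, which were below the expression minimum. How many of all expressed records were highest on day 2 was not counted. The sum of the 8 neural progenitor markers was also highest on day 2 (4680 FPKM), while several other lists were highest on day 0. EGR1 was highest on day 4, FOS on day 18, and FOSL1, JUNB and FOSB on day 0. The summed FPKM of all 10 was 82.4 on day 0, 119 on day 2, 55.9 on day 11 and 59.1 on day 18.

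A set of 4 members shares exons with a long noncoding record on the opposite strand, and the study's methods do not state counting by strand. The antisense record covered 88.0% of FOS exon bases, 82.9% of JUNB, 100% of EGR1 and 89.4% of NR4A1, and reads of the partners could not be told apart if strand was not used. The 4 antisense records had between 0.027 and 0.189 FPKM.

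Day 1 against day 0 asks what changed when FGF was withdrawn and BDNF added. EGR1 was higher and FOSL1 lower, and the other 5 expressed members stayed within 2-fold. EGR1 went from 1.78 to 11.5 FPKM, a relative change of 2.73, and 14 of the 11793 expressed coding records had a larger one. FOSL1 went from 17.6 to 6.25 FPKM, a relative change of -1.37, and 99.1% of the expressed coding records lay above it. Among all expressed coding records, 4.66% were higher and 2.09% lower, and as deposited the calls were 425 higher and 364 lower in place of 550 and 247. The remaining relative changes were 0.81 for FOS, 0.64 for NR4A1, 0.33 for JUN, 0.22 for IER2 and -0.32 for JUNB. EGR3, below the expression minimum, had a change of 1.32. The median of the expressed members was 0.33.

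Related genes lay on both sides of the median at this step. Of the 7 expressed AP-1 and EGR relatives, ATF3 (1.20), a stress-induced repressor, and JDP2 (1.70), a JUN-binding repressor, were higher and 0 were lower, the third largest change being 0.51 for MAFK, a small MAF factor. Of 28 other early response genes, 0 were higher and 5 lower, led by the kinase genes SGK1 (-1.56) and SIK1 (-1.41) and by IER3 (-1.30), with a median of -0.17. Of 11 ERK feedback and ETS genes, 10 lay below the median of all expressed records and 3 were lower, namely ETV4 (-2.04), an ETS factor, SPRY1 (-2.01), an inhibitor of receptor signalling, and DUSP4 (-1.12), an ERK phosphatase. The other 8 stayed within 2-fold, among them DUSP6 at 0.15 and DUSP5 at -0.10.

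The factors that act on immediate early promoters stood closer to the median. Of 10 serum response and CREB regulators, 1 was lower, the ternary complex factor ELK3 (-1.61), followed in size by ELK4 (-0.42, on a merged record) and by MKL1 (0.27), a cofactor of serum response factor. None of the 5 EGR corepressors and mRNA decay factors reached 2-fold, the largest changes being 0.64 for ZFP36, 0.50 for ZFP36L1 and -0.39 for NAB2, a corepressor of EGR1. None of 10 heat shock genes did, with HSPE1 at -0.93, HSPA1A at 0.73 (on a merged record) and HSP90AA1 at -0.69. Of 10 expressed neuronal activity genes, SIK1 was lower (-1.41), with SCG2 next at -0.92. NRN1 had a change of 1.09 (0.98 as deposited), from 0.0597 to 0.215 FPKM. It is given without a count because it met the expression minimum only through day 18. ARC, NPAS4, EGR4 and PTGS2, which strong synaptic activity induces, stayed at or below 0.635 FPKM on all 7 days.

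**Figure D3:**
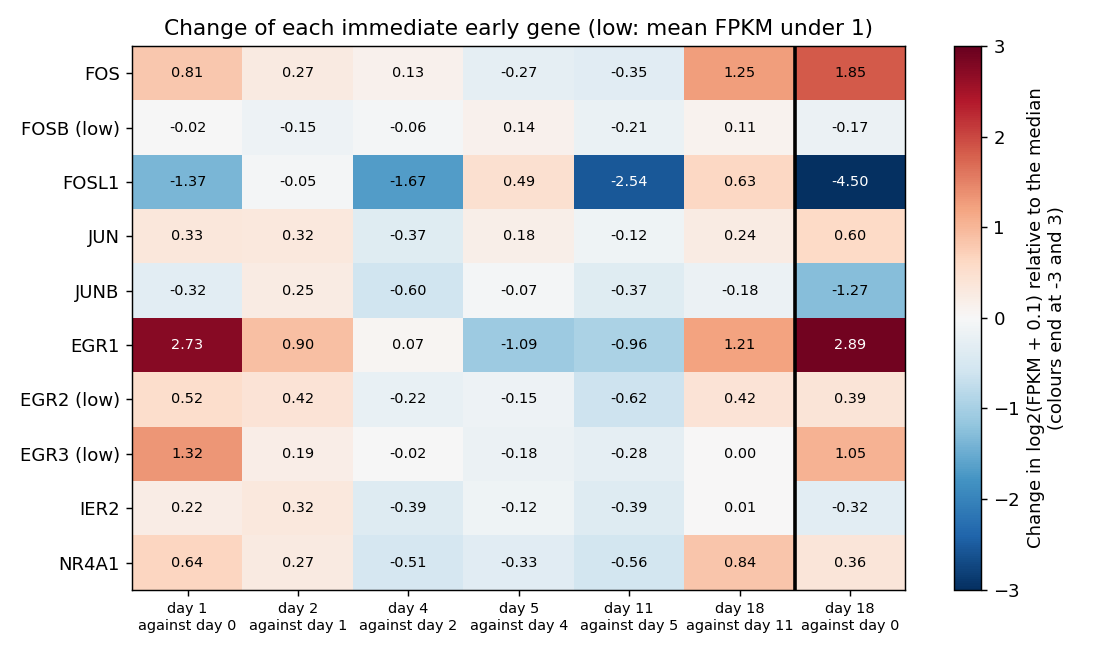
Change in log2(FPKM + 0.1) of each of the 10 members for 6 steps and, right of the black line, for day 18 against day 0, relative to the median of expressed coding records (red higher, blue lower, colours ending at -3 and 3). EGR1 has 2.73 and FOSL1 -1.37 at day 1, FOSL1 has -1.67 at day 4 and -2.54 at day 11, and FOS and EGR1 have 1.25 and 1.21 at day 18 against day 11.

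Day 2 against day 1 was a step of small changes, with 0.11% of expressed coding records higher and 0.161% lower. None of the 7 expressed members was past 2-fold, yet 6 of them lay above the median, and FOSL1 was the exception at -0.05. EGR1 went from 11.5 to 22.2 FPKM, a change of 0.90, and 22 records had a larger one. IER2 (0.32), JUN (0.32), NR4A1 (0.27), FOS (0.27) and JUNB (0.25) each had a change above that of at least 92.8% of the expressed records. The 7 expressed AP-1 and EGR relatives all lay above the median too, with JUND at 0.82, MAFK at 0.60 and MAFF at 0.47.

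Day 4 against day 2 compared cultures of the same medium and surface before replating. FOSL1 went from 6.21 to 1.88 FPKM and was lower by 1.67, with 11 records below it, while 0.653% of expressed coding records were lower and 0.127% higher. No other member was past 2-fold. JUNB (-0.60), NR4A1 (-0.51), IER2 (-0.39) and JUN (-0.37) stood below the median and EGR1 (0.07) and FOS (0.13) above it.

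Most genes of several lists lay below the median at that step, few of them by 2-fold. All 7 expressed AP-1 and EGR relatives did, with MAFF at -1.06, MAFG at -0.69 and JUND at -0.68. So did 26 of 28 other early response genes, among them IER3 (-1.13), ZFP36 (-0.80), whose protein degrades early response mRNAs, and HBEGF (-0.72), an EGF receptor ligand. All 11 ERK feedback and ETS genes did as well, led by ETV4 (-1.47), SPRY4 (-1.17) and ETV5 (-0.91). The list medians were -0.66, -0.39 and -0.61, and that of the members was -0.39. Mesenchymal markers moved with them, since all 7 expressed ones lay below the median with a list median of -0.51, led by TAGLN at -1.29, and 8 of 10 serum response and CREB regulators did too. The part of these markers in the values of the members was not tested.

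Day 5 against day 4 spanned the replating. EGR1 was the member that was lower, from 23.3 to 10.4 FPKM, a change of -1.09 with 4 of 11793 records below it. The background was 0.0424% lower and 0.373% higher. FOSL1 was in the other direction, from 1.88 to 2.54 FPKM with a change of 0.49, and the rest lay between -0.33 (NR4A1) and 0.18 (JUN). Of the AP-1 and EGR relatives, 6 of 7 lay below the median, with JDP2 at -0.83, FOSL2 at -0.39 and MAFK at -0.38. Of the ERK feedback and ETS genes, 10 of 11 lay above it, with ETV4 at 0.97, ETV1 at 0.60 and ETV5 at 0.44. Replating, time in culture and the smaller number of day 5 cultures cannot be told apart here.

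Day 11 against day 5 covered the longest step but one, over which the neuronal marker STMN2 went from 238 to 517 FPKM. All 7 expressed members lay below the median. FOSL1 went from 2.54 to 0.305 FPKM, a change of -2.54 with 25 records below it, and was the only expressed member counted as lower, against a background of 3.05% lower and 2.67% higher. EGR1 went from 10.4 to 4.72 FPKM with a change of -0.96, which as deposited was -1.12 and past 2-fold. NR4A1 had -0.56, IER2 -0.39, JUNB -0.37, FOS -0.35 and JUN -0.12. As deposited, calls over all records were 212 higher and 500 lower in place of 315 and 360.

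Some relatives of the members were also lower on day 11. JDP2 (-1.69), FOSL2 (-1.68) and ATF3 (-1.05) were lower among 7 expressed AP-1 and EGR relatives, whose median was -0.99, while JUND lay above the median of all expressed records at 0.21. Of 28 other early response genes, 12 lay above that median and 5 were lower, led by ZFP36 (-1.30) and by CTGF (-1.54) and CYR61 (-1.42), which encode matrix-associated proteins. DUSP6 (-1.43), an ERK phosphatase, and ETV4 (-1.26) were lower among 11 ERK feedback and ETS genes, followed by DUSP5 at -0.89. ELK3 (-1.63) was again the serum response regulator that was lower, with CREM at -0.52 and CREBBP at 0.25.

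Day 18 against day 11 showed FOS and EGR1 higher again. FOS went from 1.62 to 3.29 FPKM, a relative change of 1.25 with 109 records above it, and EGR1 from 4.72 to 9.12, a change of 1.21 with 121 above it. These 2 of 7 expressed members stood against a background of 1.83% higher and 1.41% lower. As deposited, their changes were 0.97 and 0.93, just under 2-fold, and the calls over all records were 99 higher and 439 lower in place of 216 and 166. NR4A1 followed with 0.84 (1.79 to 2.68 FPKM) and FOSL1 with 0.63 (0.305 to 0.419), both also higher as deposited. JUN at 0.24 and IER2 at 0.01 were above the median, but as deposited they were at -0.04 and -0.27, and JUNB was below on both scales, at -0.18 relative and -0.46 as deposited.

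Several genes of the early response lists were higher on day 18 as well. FOSL2 (1.06) was higher among 7 AP-1 and EGR relatives, all of which lay above the median, with JDP2 at 0.97 and MAFF at 0.85. BHLHE40 (2.62), a clock-linked repressor, HBEGF (1.47), CSRNP1 (1.23) and KLF10 (1.06) were higher among the 28 other early response genes, of which 16 lay above the median. All 11 ERK feedback and ETS genes lay above it, and ETV4 (1.43), SPRY1 (1.35), SPRY4 (1.28) and DUSP4 (1.18) were higher. Of the activity genes, the secreted VGF was higher (1.63), and the values of NRN1 (1.55) and BDNF (1.49) are given without a count because both met the expression minimum only through day 18. Heat shock genes had a median of 0.09, with HSPA8 at 0.37, HSPH1 at 0.29 and DNAJB1 at 0.27, and serum response and CREB regulators one of -0.07, with ELK4 at -0.35, MKL1 at 0.22 and ELK3 at -0.19. As deposited, 0 AP-1 and EGR relatives, 2 other early response genes and 2 ERK feedback and ETS genes were higher, in place of 1, 4 and 4. On that scale the medians of the AP-1 and EGR relatives and of the ERK feedback and ETS genes were 0.43 and 0.54, while those of the other early response, activity and heat shock genes were below 0, at -0.13, -0.09 and -0.19.

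**Figure D4:**
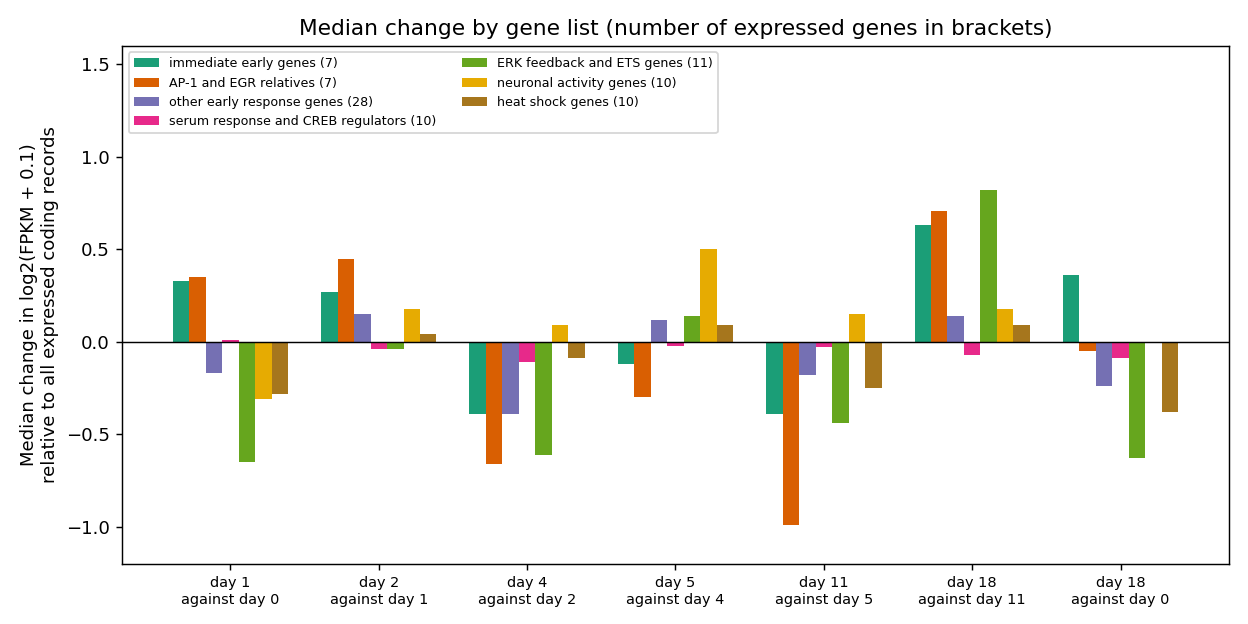
Median change in log2(FPKM + 0.1) of 7 gene lists, relative to the median of all expressed coding records, for 7 comparisons. Immediate early genes and ERK feedback and ETS genes have medians of 0.33 and -0.65 at day 1, and both are above 0 at day 18 against day 11, at 0.63 and 0.82.

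Over the whole course, day 18 against day 0, EGR1 and FOS were higher and FOSL1 and JUNB lower. The relative changes were 2.89 for EGR1, 1.85 for FOS, -4.50 for FOSL1 and -1.27 for JUNB, and those 4 kept their direction as deposited, at 2.29, 1.25, -5.09 and -1.87. Changes of this size were common over 18 days, since 14.7% of expressed coding records were higher and 12.1% lower. Within that wider spread FOSL1 stood out most, with 26 of 11793 records below it, while 302 records lay above EGR1 and 728 above FOS. As deposited, calls over all records were 893 higher and 3529 lower in place of 1729 and 1431. JUN (0.60) and NR4A1 (0.36) lay above the median but were at -0.00 and -0.24 as deposited, and IER2 was at -0.32. The median of the expressed members was 0.36 relative to all expressed records and -0.24 as deposited.

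All 5 related lists had medians below that of all expressed records at the end, at -0.05 for AP-1 and EGR relatives, -0.24 for other early response genes, -0.09 for serum response and CREB regulators, -0.43 for EGR corepressors and mRNA decay factors and -0.63 for ERK feedback and ETS genes. The counts depended on the centring, since as deposited 2, 12, 4, 3 and 9 genes of these lists were lower in place of 0, 6, 1, 0 and 3. Relative to the median, none of the 7 AP-1 and EGR relatives was past 2-fold, with FOSL2 at -0.93, JUND at 0.80 and MAFF at -0.43. Among the 28 other early response genes, BHLHE40 (1.35) and BTG2 (1.00), which slows cell division, were higher and 6 were lower, led by IER3 (-2.82) and SIK1 (-1.64). ETV4 (-2.18), SPRY1 (-1.89) and DUSP6 (-1.05) were lower among the ERK feedback and ETS genes, and ELK3 (-3.93) among the serum response and CREB regulators, followed by SRF (-0.95), the serum response factor itself, and CREM (-0.93).

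**Figure D5:**
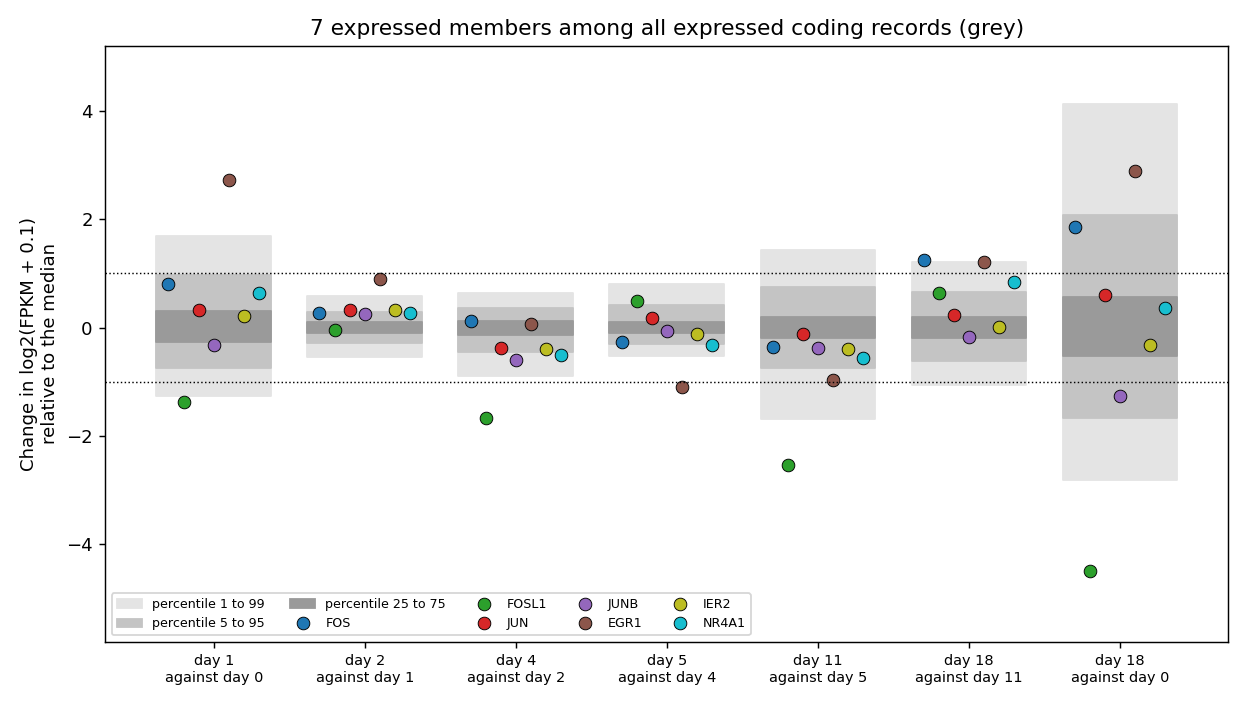
Change in log2(FPKM + 0.1) relative to the median for the 7 expressed members (coloured points) in 7 comparisons, over grey bands for percentiles 1 to 99, 5 to 95 and 25 to 75 of all 11793 expressed coding records, with dotted lines at 2-fold. EGR1 lies above the bands at day 1 (2.73) and day 2 (0.90) and below them at day 5 (-1.09). FOSL1 lies below them at days 1, 4 and 11 and for day 18 against day 0. FOS lies just above them for day 18 against day 11 (1.25). The bands are widest for day 18 against day 0.

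The genes with the most similar course were found by the root mean square difference of log2(FPKM + 0.1) over 7 days, each profile being centred on its own mean, among 11242 expressed records. Nearest to the mean profile of the expressed members were EIF1 (0.09), a translation initiation factor, C14orf43 (0.10), GTPBP2 (0.10), AARS (0.10), the alanyl-tRNA synthetase, and MAFG (0.11), against a median distance of 0.47. EIF1 had 331 FPKM on day 0, 494 on day 2, 188 on day 11 and 235 on day 18, and so the same high and low days as NR4A1, to which it was also nearest (0.10). For FOSL1 the nearest was PHLDA2 (0.16), an imprinted growth regulator, which went from 5.34 FPKM on day 1 to 0.326 on day 11.

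The nearest records were RAB11FIP5 for FOS (0.16), NAGK for JUN (0.05), ACTN4, an actin crosslinker, for JUNB (0.04) and GHITM for IER2 (0.06). EGR1 had the most distant nearest record, VASN at 0.38, which went from 0.387 FPKM on day 0 to 3.70 on day 2 and 0.843 on day 18. Among the members themselves, IER2 and NR4A1 were the closest pair (0.27) and FOSL1 and EGR1 the most distant (2.33).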

How the data were processed

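According to the methods, paired-end reads of each library were mapped to hg19 by the authors using TopHat2, and Cufflinks and Cuffdiff2 then gave transcripts and their levels. Default options were used, and versions are not given in the sources used here. The deposited FPKM values hold 1 value per gene record and day over all cultures of that day, and 0 columns held single samples. Deposited columns of the authors' own comparisons between adjacent days (fold changes, test statistics, p-values and q-values) were not used. From that table only gene names and exon coordinates were taken.

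The members and gene lists were chosen with earlier results of these data known. For each symbol the coding record with the highest mean FPKM was kept. Changes in log2(FPKM + 0.1) were centred on the median of coding records whose FPKM averaged 1 or more, and calls needed a 2-fold change. All members are named, and of each list at least the 3 largest changes in the comparison described. The calculation was tested on simulated data. Python 3.11.15, pandas 2.3.3 and numpy 2.4.6 were used. A planned protein comparison was not run. Groups came from sample titles, and alternatives covered scaling, pseudocount, expression minimum, fold, records and the day set against day 11.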

Additional observations from a re-analysis of the deposited data

How the results depend on the processing

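No paired analysis was possible because the deposited columns are values over all cultures of a day, which also kept cultures from being left out in turn. Without centring, 0 expressed members were higher on day 18 than on day 11, 2 were lower on day 11 than on day 5, and the members' median from day 0 to day 18 was -0.24 in place of 0.36. With a pseudocount of 1, 1 member was higher on day 18 than on day 11 and 1 was lower on day 18 than on day 0. With an expression minimum of 0.1 FPKM, or with none, 2 members were higher on day 1, and with none 2 were lower on day 11 than on day 5. At 1.5-fold, 3 members were higher on day 1, 1 on day 2 and 4 on day 18 against day 11, and 2 were lower on day 4 and 2 on day 11. At 4-fold, 0 were lower on days 1, 4 and 5, 0 were higher on day 18 against day 11, and from day 0 to day 18 1 was higher and 1 lower. With day 4 in place of day 5, an alternative chosen after seeing the data, 2 members were lower on day 11. Scaling to the sum of FPKM, which ranged from 251156 to 413978 over the days, and a pseudocount of 0.01 kept every such count within 1.5-fold. Summing records and leaving out merged records did so too, but each member had 1 unmerged record, so its own values could not change. No called change reversed in any alternative. Of 724 changes of single members and list medians, 695 moved by less than 1.5-fold. Among those 695, 70 came from summing records and were fixed in this way. Leaving out the centring shifts every change of a comparison by its median. Its 138 values that moved less and 23 that moved more follow from the medians given above. Depth is unknown, so no limit can be set on values near 0.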

Other observations

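The data also hold 12 long noncoding records named after members, and none exceeded 0.316 FPKM on any day. The highest, linc-JUN-2, had 0.316 FPKM on day 0, 0.157 on day 1, 0.171 on day 2, 0.0992 on day 4, 0.257 on day 5, 0.00554 on day 11 and 0.116 on day 18. The antisense record linc-EGR1-AS stayed between 0.028 and 0.0648 FPKM while EGR1 ranged from 1.78 to 23.3, and linc-EGR2 and linc-FOS-2 were listed at 0 on all 7 days.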
